A study of Mus musculus with 2 samples.

Results

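The cells described here are barcodes of the EKP tumour section that carried high counts of Epcam and Krt8 and no count of 3 genes that mark immune or endothelial cells. A barcode is one segmented cell with its decoded transcripts. It was included when it had 80 or more gene counts, Epcam of 5 or more, Krt8 of 5 or more and no count of Ptprc, Pecam1 or Mpeg1. Of 133173 EKP barcodes with 80 or more gene counts, 24678 met the rule, which is 18.5% (Clopper-Pearson 95% interval 18.3 to 18.7). They are called the EKP Epcam-high cells below and are set against the 108495 other EKP barcodes of that depth.

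The series measured RNA in place with Xenium In Situ in paraffin sections of subcutaneous mouse tumours labelled diffuse gastric cancer, in a study that by its title asks how a mutant RHOA, a small GTPase of the actin cytoskeleton, alters cell lineage and immune cells. There were 2 groups, each with 1 section: a tumour grown from the cultured line labelled EKP and a tumour grown from the cultured line labelled RKP. For both, 3000000 cultured cells mixed with Matrigel, a basement membrane gel, were injected into both flanks of C57BL/6 mice aged 5 weeks, and the panel read 479 genes, a ready-made mouse set of 379 plus 100 chosen for the study. What the letters EKP and RKP stand for, and in which line RHOA is mutated, is not stated in the labels, and each line is 1 cultured line grown under the skin, outside the stomach. With 1 section per group there are no replicates and no test. All intervals cover counting error only, and a difference was counted at 2-fold, which is a rule of size.

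Epcam is a surface adhesion protein of epithelial cells, and Krt8 is an intermediate filament protein of simple epithelia. In epithelial tumours, loss of E-cadherin and of claudins together with gain of the factors Snai1, Snai2 and Twist1 is the textbook description of a mesenchymal transition. Diffuse gastric cancer is known for poorly cohesive growth and for frequent loss of E-cadherin function.

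The Epcam-high cells had a median of 263 gene counts, with a lowest of 80 and a highest of 974, against a median of 177 in the other EKP barcodes. They held 6752567 gene counts in all, against 21659488 in the other EKP barcodes. Negative control probes, designed to hybridise to nothing, summed to 19.0 per 1000000 gene counts in the Epcam-high cells and 21.2 in the other EKP barcodes. Of 37393 EKP barcodes that reached both thresholds, 12715 were left out for a count of an excluded gene: 9460 had Mpeg1, 4681 had Ptprc and 2381 had Pecam1. Those barcodes therefore belong to the other EKP barcodes, of which 28746 lacked all 3 excluded genes. The EKP and RKP files shared 19 barcode names, none of them among the Epcam-high cells. Doublets were not called.

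The choosing genes are given as a description only. Epcam counts per cell had a median of 14 and reached 75, and Krt8 counts had a median of 13 and reached 59. Scaled to 1000000 gene counts of each set (CPM), Epcam stood at 56298 in the Epcam-high cells and 12729 in the other EKP barcodes, and Krt8 at 53682 in the Epcam-high cells and 17506 in the other EKP barcodes. At the edge of the rule, 1092 cells had an Epcam count of exactly 5 and 904 barcodes that met every other condition had 4. Cdh1 stood at 16204 CPM and Cldn4 at 19217 CPM in the cells just inside, against 14235 CPM for Cdh1 and 16220 CPM for Cldn4 in the barcodes just outside, so no step in these epithelial genes lay at the threshold. A Krt8 count of 5 was seen in 1093 cells and of 4 in 837 barcodes, and 253 cells had 80 to 89 gene counts while 185 barcodes had 70 to 79.

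The label names Ivl, Gpx2 and Scg2 beside Epcam and Krt8 as markers. All 3 stood higher in the Epcam-high cells than in the other EKP barcodes, but with every barcode thinned to 80 counts most single cells showed none of them. At 80 counts Gpx2 was seen in 32.1% of Epcam-high cells and 9.76% of other EKP barcodes. Ivl was seen in 16.7% of Epcam-high cells and 3.96% of other EKP barcodes, and Scg2 in 4.64% of Epcam-high cells and 0.890% of other EKP barcodes. No count of any of the 3 was found in 55.8% of Epcam-high cells, 1 of them was found in 35.4%, 2 in 8.29% and all 3 in 0.474%. Without thinning the shares in Epcam-high cells were 55.7% for Gpx2, 35.4% for Ivl and 11.3% for Scg2. Among the EKP sets compared, the lowest shares at 80 counts were in barcodes that had Krt8 of 5 or more, none of the excluded genes and no Epcam: 4.80% for Gpx2, 0.594% for Ivl and 0.855% for Scg2, at an unthinned median depth of 218 counts. The label therefore holds for the epithelial genes in every cell, by the rule, and for Ivl, Gpx2 and Scg2 as genes of a minority of cells at 80 counts.

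Compared with all other EKP barcodes, the Epcam-high cells carried more of most counted claudins and membrane mucins and more E-cadherin, and less of the mesenchymal transition genes and of every macrophage, T cell, endothelial and fibroblast marker counted. Of 466 genes counted, 61 stood 2-fold or more higher in the Epcam-high cells, which is 13.1%, and 186 stood 2-fold or more lower, which is 39.9%. The median log2 ratio over the 466 genes was -0.52. With the sets scaled so that the median ratio is 1, 90 genes were higher and 140 lower, and with plain counts per barcode 88 and 148. Among the 215 genes with 500 CPM or more in at least one of the sets, 41 were higher, which is 19.1%, and 106 were lower, which is 49.3%. The cells were chosen on 5 genes of the same counts, so these figures describe the choice and test nothing. The other EKP barcodes are a mixture of tumour, immune, vessel and connective tissue cells.

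The epithelial identity genes that the rule did not use all stood higher. Cdh1, which encodes E-cadherin (ENSMUSG00000000303), was at 23026 CPM in the Epcam-high cells and 5940 CPM in the other EKP barcodes, a ratio of 3.88. The barcode file was also cut into 10 successive parts as a rough view of spread within the section, since cell positions were not used here. Over these parts Cdh1 ranged from a lowest of 19611 CPM, through a median of 21633, to a highest of 25829 CPM in Epcam-high cells, against 1161, 5825 and 10900 CPM in the other EKP barcodes, and the ranges did not overlap. The parts are not replicates, and they held between 290 and 5715 Epcam-high cells each. Krt19, a keratin of simple epithelia, was at 46396 CPM in Epcam-high cells and 14246 CPM in other EKP barcodes, a ratio of 3.26. All 5 counted genes of the epithelial list were higher, with a median log2 ratio of 2.11.

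Claudins are the membrane proteins that seal tight junctions. Cldn4 (ENSMUSG00000047501) was at 26306 CPM in Epcam-high cells and 6096 CPM in the other EKP barcodes, a ratio of 4.32 (4.28 to 4.35). Over the file parts Cldn4 lay between 23868 and 29008 CPM in Epcam-high cells and between 809 and 10639 CPM in the others. Cldn3 was at 1467 CPM in Epcam-high cells and 324 CPM in other EKP barcodes. Cldn7 stood at 2402 CPM in Epcam-high cells and 542 CPM in other EKP barcodes. Cldn2 was at 1124 CPM in Epcam-high cells and 304 CPM in other EKP barcodes. Across the file Cldn4 thus varied little among the Epcam-high cells and widely among the other barcodes. Cldn11, the last counted gene of the list, was at 14.2 CPM in Epcam-high cells and 21.7 CPM in other EKP barcodes, which is under 2-fold.

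Membrane mucins are large glycoproteins anchored in the apical membrane. Muc4 (ENSMUSG00000079620) had the largest ratio of all genes with 500 CPM or more, 4.81 (4.73 to 4.89), with 5365 CPM in Epcam-high cells and 1115 CPM in the other EKP barcodes. Its parts ran from 2286 to 9253 CPM in Epcam-high cells and from 147 to 2621 CPM in the others, so the ranges overlapped. Within every single part Muc4 was higher in the Epcam-high cells than in the others. Muc1 was at 11021 CPM in Epcam-high cells and 2748 CPM in other EKP barcodes. Muc20 stood at 528 CPM in Epcam-high cells and 130 CPM in other EKP barcodes. Muc16 was at 169 CPM in Epcam-high cells and 57.1 CPM in other EKP barcodes. Muc3a, a mucin of intestinal brush borders, ran the other way at 7.11 CPM in Epcam-high cells and 19.7 CPM in other EKP barcodes. Of 6 counted membrane mucins, 4 were higher and 1 was lower, with a median log2 ratio of 1.79.

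Some transcripts known from stomach, gut or other lining epithelia stood higher, while their list as a whole was split. Ctse, the aspartic protease cathepsin E of gastric surface cells, was at 8032 CPM in Epcam-high cells and 1754 CPM in the other EKP barcodes. Gpa33, an intestinal surface antigen, was at 10988 CPM in Epcam-high cells and 2430 CPM in other EKP barcodes. Gpx2 (ENSMUSG00000042808), a glutathione peroxidase of the gut lining, was at 6792 CPM in Epcam-high cells and 2075 CPM in other EKP barcodes. The ranges of its parts, 3138 to 10887 CPM in Epcam-high cells and 562 to 3545 CPM in the others, overlapped. Within every single part Gpx2 was higher in the Epcam-high cells than in the others. Prom1, a protein of apical membrane protrusions, was at 7430 CPM in Epcam-high cells and 1827 CPM in other EKP barcodes. Of the gastric and gut list 4 of 14 were higher and 3 lower, with a median log2 ratio of 0.36. Its lower members were Tff1, Reg3g and Muc3a. Tff1, a gastric trefoil peptide, was at 26.7 CPM in Epcam-high cells and 68.1 CPM in other EKP barcodes. Reg3g stood at 10.4 CPM in Epcam-high cells and 168 CPM in other EKP barcodes.

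Squamous transcripts were also present. Ivl (ENSMUSG00000049128), which encodes involucrin of the cornified envelope, was at 3080 CPM in Epcam-high cells and 773 CPM in the other EKP barcodes, a ratio of 3.98 (3.90 to 4.06). Over the parts Ivl lay between 1959 and 4716 CPM in Epcam-high cells and between 73.9 and 1542 CPM in the others. Lor, which encodes loricrin of the same envelope, was at 580 CPM in Epcam-high cells and 159 CPM in other EKP barcodes. Upk1a, a uroplakin of the bladder lining, stood at 968 CPM in Epcam-high cells and 364 CPM in other EKP barcodes. Krt5, a basal keratin of squamous epithelium, stood at 16.4 CPM in Epcam-high cells and 12.7 CPM in other EKP barcodes, so cornified envelope genes stood high without it. Of 10 counted squamous genes, 5 were higher and none was lower, with a median log2 ratio of 0.70.

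Granule genes formed a small group. Scg2 (ENSMUSG00000050711), which encodes the granule protein secretogranin 2, was at 651 CPM in Epcam-high cells and 135 CPM in the other EKP barcodes, a ratio of 4.81 (4.59 to 5.04). Its parts did not overlap, at 438 to 1388 CPM in Epcam-high cells and 72.1 to 232 CPM in other EKP barcodes. Snap25, a protein of vesicle fusion, was at 693 CPM in Epcam-high cells and 153 CPM in other EKP barcodes. Insm1, a neuroendocrine transcription factor, stood at 434 CPM in Epcam-high cells and 166 CPM in other EKP barcodes. Chga, the classical granule protein chromogranin A, ran the other way at 38.8 CPM in Epcam-high cells and 117 CPM in other EKP barcodes. Over the 10 counted members 3 were higher, 1 was lower and the median log2 ratio was 0.02.

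**Figure D1:**
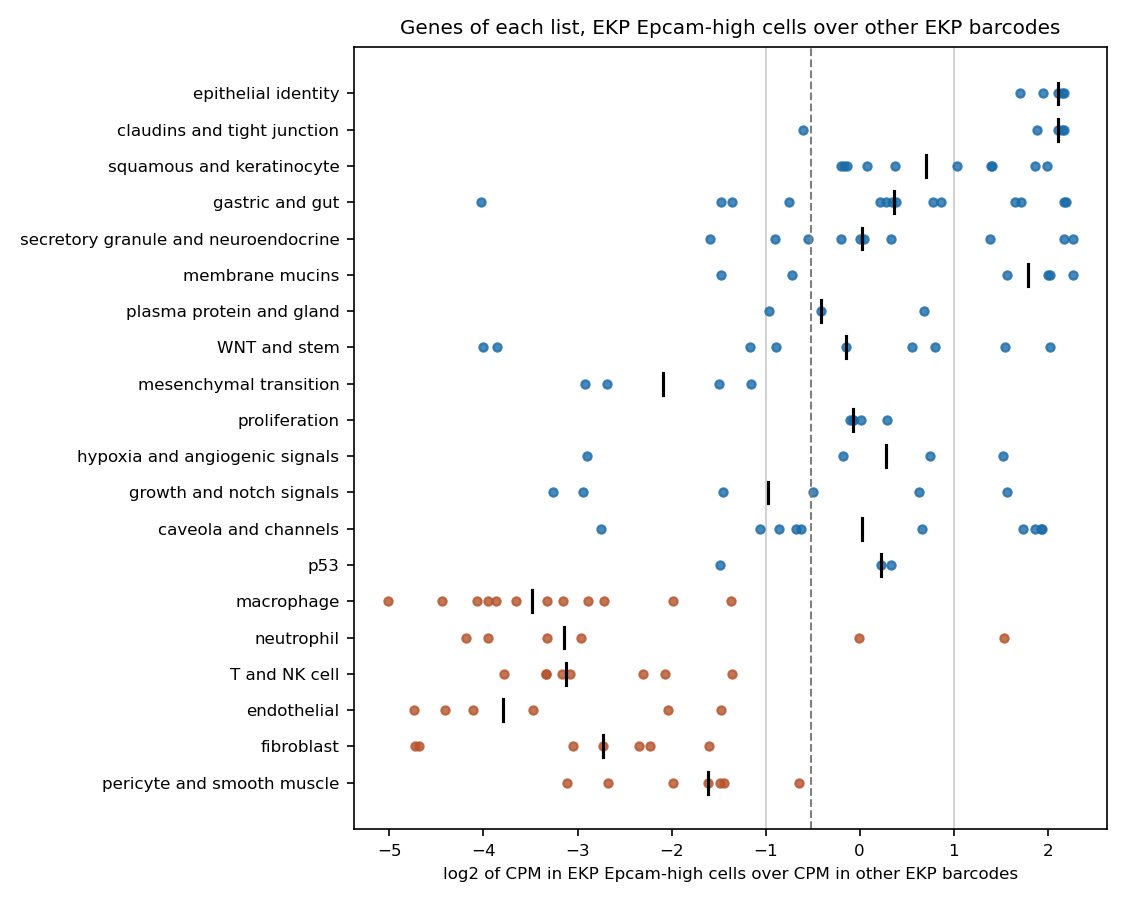
Log2 ratio of CPM, EKP Epcam-high cells over other EKP barcodes, with 1 point per counted gene; blue marks identity lists, brown marks lists of other cell types, black bars are list medians, grey lines are 2-fold and the dashed line is the median over all 466 counted genes, -0.52. The epithelial and claudin lists lie to the right with medians of 2.11, and the mesenchymal transition list lies to the left with a median of -2.09.

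The mesenchymal transition genes ran opposite to the claudins. Snai1, a zinc-finger repressor of the E-cadherin gene, was at 1550 CPM in Epcam-high cells and 4369 CPM in the other EKP barcodes. Snai2, its close relative, was at 124 CPM in Epcam-high cells and 797 CPM in other EKP barcodes. Twist1, a helix-loop-helix factor, stood at 151 CPM in Epcam-high cells and 1138 CPM in other EKP barcodes. S100a4, a calcium-binding protein of motile cells, was at 3893 CPM in Epcam-high cells and 8690 CPM in other EKP barcodes. All 4 were lower, with a median log2 ratio of -2.09. The parts of Snai1, 950 to 1826 CPM in Epcam-high cells and 2953 to 6188 CPM in other EKP barcodes, did not overlap. Those of S100a4, 2305 to 8238 CPM in Epcam-high cells and 3740 to 17711 CPM in other EKP barcodes, overlapped. Fibroblasts and pericytes also express such genes, and their markers moved the same way: the 7 fibroblast markers summed to 20696 CPM in Epcam-high cells and 78180 CPM in the other EKP barcodes, and the 7 pericyte and smooth muscle markers to 25652 CPM in Epcam-high cells and 51026 CPM in other EKP barcodes. Their part in the lower Snai1, Snai2, Twist1 and S100a4 was not tested in this comparison.

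Proteins of the Snai family bind the E-box CACCTG, so the start regions of epithelial genes are shown for this motif. Sequences are from RefSeq on GRCm38.p6, the 250 bases before the start, 5′ to 3′ on the gene's strand, with matches to CACCTG or its reverse complement CAGGTG in capitals. Epcam at chr17:87635729-87635978 (plus strand) had matches 187 and 19 bases before the start, Krt8 at chr15:102004343-102004592 (minus strand) had one 111 bases before it, and Cldn4 at chr5:134946935-134947184 (minus strand) had one 14 bases before it.
Epcam: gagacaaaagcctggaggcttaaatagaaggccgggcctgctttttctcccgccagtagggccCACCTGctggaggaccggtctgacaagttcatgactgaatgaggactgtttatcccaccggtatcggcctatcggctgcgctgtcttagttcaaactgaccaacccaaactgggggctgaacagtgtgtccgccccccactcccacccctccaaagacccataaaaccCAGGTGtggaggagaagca
Krt8: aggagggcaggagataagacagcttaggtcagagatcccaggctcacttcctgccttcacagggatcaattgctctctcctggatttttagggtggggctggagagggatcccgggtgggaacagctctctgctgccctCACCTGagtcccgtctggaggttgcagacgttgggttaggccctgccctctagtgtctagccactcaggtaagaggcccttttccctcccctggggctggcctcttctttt
Cldn4: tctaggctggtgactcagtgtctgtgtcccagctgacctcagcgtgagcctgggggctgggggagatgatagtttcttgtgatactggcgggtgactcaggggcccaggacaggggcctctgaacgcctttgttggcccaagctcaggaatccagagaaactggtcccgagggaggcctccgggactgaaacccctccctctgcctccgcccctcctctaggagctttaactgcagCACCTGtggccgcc
Of the 15 panel genes of the epithelial, claudin and membrane mucin lists, 12 matched an entry, and 6 of these had a match: Cldn4, Cldn7, Epcam, Krt8, Muc1 and Muc20. Among all 32851 windows of the same length, counted singly, 17.2% had one. A gene was scored as having a match if any of its entries had one, so genes and windows are unlike units. Cdh1, Krt19 and Muc3a were not matched. A match is a description of letters and shows no binding.

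The start region of Ivl is shown because involucrin is a known target of AP-1, which binds TGANTCA, a motif that is its own reverse complement. On GRCm38.p6 at chr3:92573736-92573985 (minus strand), 1 match, in capitals, lay 116 bases before the start.
Ivl: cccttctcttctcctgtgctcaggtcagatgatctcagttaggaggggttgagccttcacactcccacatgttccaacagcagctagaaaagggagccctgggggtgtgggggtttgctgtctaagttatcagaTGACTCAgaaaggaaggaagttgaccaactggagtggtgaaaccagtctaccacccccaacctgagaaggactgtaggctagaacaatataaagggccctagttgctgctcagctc
Of all windows, counted singly, 6.75% had a match. Of the 12 matched epithelial, claudin and membrane mucin genes, scored over any entry, 2 did, Cldn4 and Muc13.

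Growth, hypoxia and stem-associated genes differed member by member. Vegfa, the vessel growth factor, was at 25025 CPM in Epcam-high cells and 8687 CPM in the other EKP barcodes, a ratio of 2.88. Areg, a ligand of the EGF receptor, stood 2.96-fold higher, and Acan, the proteoglycan aggrecan, 3.80-fold higher at 31513 CPM in Epcam-high cells and 8301 CPM in other EKP barcodes. Sox9, a transcription factor of progenitor cells and of cartilage, stood 2.92-fold higher. Sfrp1, a WNT antagonist, was at 341 CPM in Epcam-high cells and 4946 CPM in other EKP barcodes. Trp53, the gene of p53, stood at 726 CPM in Epcam-high cells and 2034 CPM in other EKP barcodes. Hif1a, Mdm2 and Cdkn1a stayed within 2-fold. Of 5 proliferation genes none passed 2-fold in either direction: Mki67, a protein of cycling cells, was at 2669 CPM in Epcam-high cells and 2803 CPM in other EKP barcodes, a ratio of 0.952, and the list's median log2 ratio was -0.07.

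The genes with the largest ratios downwards included genes known from macrophages, endothelium and fibroblasts. Serpina3n, a protease inhibitor, was at 45.9 CPM in Epcam-high cells and 2195 CPM in the other EKP barcodes, 47.8-fold lower, and Clec4a3, a lectin receptor of macrophages, was 39.0-fold lower. Folr2 of tissue macrophages was 32.3-fold lower, Tie1 of endothelium 26.7-fold, and Dpt and Pi16 of fibroblasts 26.5-fold and 25.7-fold. Chl1, Alox5ap, Ms4a6c, Gpihbp1, Cd36 and Ms4a7 were between 22.2-fold and 25.9-fold lower. Of the 12 named genes on each side, 10 had parts that did not overlap, where 38.4% of all 466 counted genes did so. Muc4 and Muc20 overlapped among the higher ones, and Dpt and Chl1 among the lower ones.

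Markers of other cell types were present in the Epcam-high cells, and the 3 genes that the rule excluded were at 0. At 80 counts a fibroblast marker was found in 60.7% of Epcam-high cells and 91.0% of other EKP barcodes, and a pericyte or smooth muscle marker in 79.6% of Epcam-high cells and 86.8% of other EKP barcodes. All 12 counted macrophage markers were lower, summing to 4718 CPM in Epcam-high cells and 39588 CPM in the other EKP barcodes. The 8 T and NK cell markers summed to 284 CPM in Epcam-high cells and 1546 CPM in other EKP barcodes, and the 6 counted endothelial markers to 652 CPM in Epcam-high cells and 13822 CPM in other EKP barcodes, again all lower. The neutrophil list was mixed, at 3051 CPM in Epcam-high cells and 6234 CPM in other EKP barcodes. Its receptor genes Csf3r, at 98.8 CPM in Epcam-high cells and 1793 CPM in other EKP barcodes, and Cxcr2, at 44.3 CPM in Epcam-high cells and 688 CPM in other EKP barcodes, were lower, while Ly6g stood higher at 2481 CPM in Epcam-high cells and 859 CPM in other EKP barcodes. The B and plasma cell pair was lower at 21.9 CPM in Epcam-high cells and 64.2 CPM in other EKP barcodes. In the mast cell list Cyp11a1, a steroid-forming enzyme, stood 3.49-fold higher at 301 CPM in Epcam-high cells and 86.2 CPM in other EKP barcodes. Cpa3, a mast cell protease and the other counted gene of that list, was lower at 8.0 CPM in Epcam-high cells and 44.1 CPM in other EKP barcodes. The skeletal muscle pair, at 121 CPM in Epcam-high cells and 91.7 CPM in other EKP barcodes, and the adipocyte gene Aqp7, at 12.7 CPM in Epcam-high cells and 23.1 CPM in other EKP barcodes, did not pass 2-fold. Transcripts of neighbouring cells can be assigned to a barcode, and how much of these remaining levels came that way was not tested.

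A closer reference than all other barcodes is the set of EKP barcodes that also had Krt8 of 5 or more and none of the excluded genes but no Epcam. There were 4212 of these. Against them the Epcam-high cells had more of 4 of 5 counted claudins, more E-cadherin and less of the mesenchymal transition genes. Of 460 counted genes, 57 were higher, which is 12.4%, and 182 were lower, which is 39.6%, with a median log2 ratio of -0.76. Scaled to a median ratio of 1, 89 were higher and 47 lower. Cdh1 was at 23026 CPM in the Epcam-high cells and 1424 CPM in the Krt8-positive barcodes without Epcam, a ratio of 16.2. Cldn4 was at 26306 CPM in Epcam-high cells and 647 CPM in the set without Epcam. Krt19 stood at 46396 CPM in Epcam-high cells and 20243 CPM in the set without Epcam, so the simple keratin differed less than the junction genes. Prom1 stood 88.4-fold higher at 7430 CPM in Epcam-high cells and 84.1 CPM in the set without Epcam, followed by Ctse at 67.5-fold. Prom2, a relative of Prom1, stood 62.1-fold higher, Cldn7 61.6-fold, Fxyd3, a regulator of the sodium pump, 59.5-fold, and Gabrp, a GABA receptor subunit, 58.1-fold. Ivl was at 3080 CPM in Epcam-high cells and 78.9 CPM in the set without Epcam, a ratio of 39.0.

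The genes that stood lower in the Epcam-high cells than in the Krt8-positive barcodes without Epcam were led by Lrp2. This endocytic receptor was at 9.33 CPM in Epcam-high cells and 1980 CPM in the set without Epcam, 212-fold lower (165 to 277). Ccn3, a matricellular protein, was 14.5-fold lower and Bmp2, a secreted growth factor, 12.3-fold lower at 369 CPM in Epcam-high cells and 4544 CPM in the set without Epcam. S100a4 was 8.77-fold lower at 3893 CPM in Epcam-high cells and 34153 CPM in the set without Epcam, Aif1l 6.97-fold and Snai2 6.77-fold. Cav1, the coat protein of caveolae, was at 4221 CPM in Epcam-high cells and 21783 CPM in the set without Epcam. Sox2, a stem cell transcription factor, stood at 7687 CPM in Epcam-high cells and 17590 CPM in the set without Epcam. Of 5 proliferation genes 3 were lower, with Mki67 at 2669 CPM in Epcam-high cells and 6259 CPM in the set without Epcam. The median log2 ratio of these 5 was -1.23, beside -0.76 over all counted genes, so relative to the median gene the difference was under 2-fold. All 4 mesenchymal transition genes were lower, with a median log2 ratio of -2.30. Fibroblast markers moved with them, at 20696 CPM in Epcam-high cells and 49626 CPM in the set without Epcam, as did macrophage markers at 4718 CPM in Epcam-high cells and 6892 CPM in the set without Epcam, and their part in these values was not tested.

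Between these sets lay 3010 EKP barcodes with Krt8 of 5 or more, Epcam of 1 to 4 and none of the excluded genes, whose median depth was 163 counts. Against them 27 of 460 genes stood higher in the Epcam-high cells, which is 5.87%, and 222 stood lower, which is 48.3%, with a median log2 ratio of -0.94. Scaled to a median ratio of 1, 97 were higher and 27 lower, so this split rests on the scaling. Of the 5 counted claudin genes 4 were higher and 1 lower. The largest ratios upwards were Prom1 at 2.89-fold, Ctse at 2.77-fold, Gabrp at 2.68-fold, Muc4 at 2.59-fold, Prom2 at 2.58-fold and Cldn4 at 2.57-fold. Lrp2 was 58.4-fold lower, at 9.33 CPM in Epcam-high cells and 545 CPM in the intermediate set. Mgll, a monoglyceride lipase, Bmp2, Tbx3, Snai2 and Ecrg4 were between 4.23-fold and 5.11-fold lower. Mki67 was at 2669 CPM in Epcam-high cells and 3115 CPM in the intermediate set. Ndrg1, a gene known to respond to low oxygen, stood at 13058 CPM in Epcam-high cells and 17447 CPM in the intermediate set, both within 2-fold. For Cdh1, Cldn4, Prom1, Muc4 and Ivl the order was the same, highest in Epcam-high cells, then the intermediate set, then the set without Epcam. Lrp2, Bmp2, S100a4 and Snai2 had the reverse order. Fibroblast markers, 7 of 7 lower, summed to 20696 CPM in Epcam-high cells and 52486 CPM in the intermediate set. Pericyte and smooth muscle markers summed to 25652 CPM in Epcam-high cells and 48054 CPM in the intermediate set, and macrophage markers to 4718 CPM in Epcam-high cells and 8734 CPM in the intermediate set. Their part in these values was not tested.

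**Figure D2:**
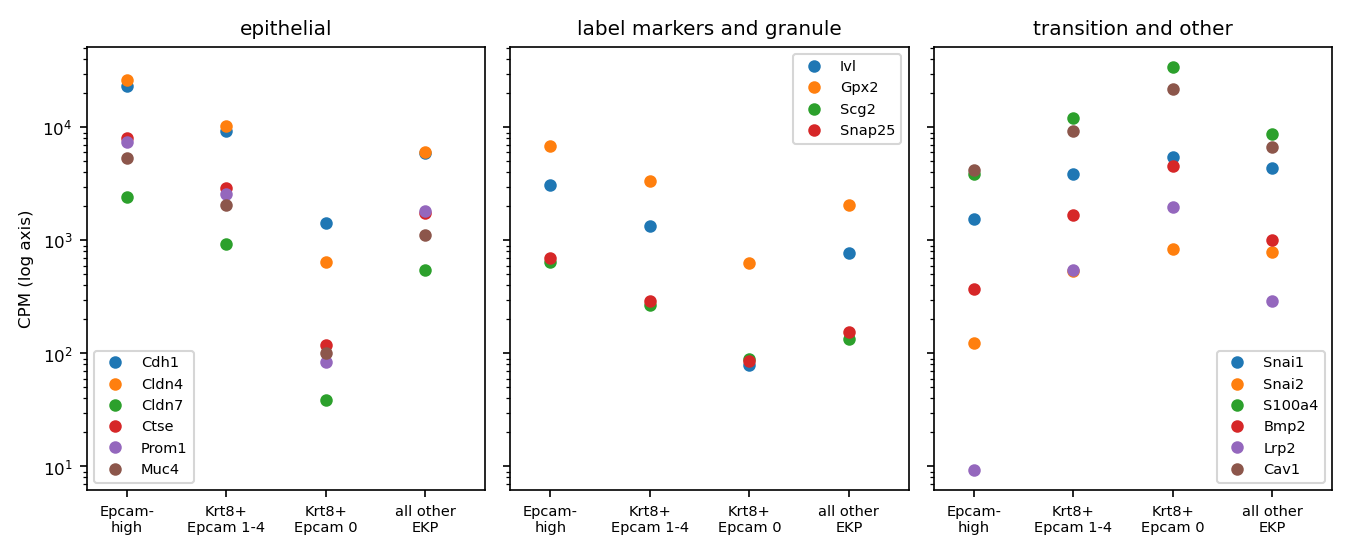
Level in CPM, on a log axis, of chosen genes in EKP Epcam-high cells, Krt8-positive barcodes with Epcam of 1 to 4, Krt8-positive barcodes without Epcam and all other EKP barcodes; each point is the pooled level of 1 set. Cdh1 lies at 23026, 9213 and 1424 CPM in the first 3 sets, and Lrp2 runs the other way at 9.33, 545 and 1980 CPM.

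The same rule applied to the RKP section gave 34527 barcodes, which is 17.1% of those with 80 or more counts, with a median depth of 241 counts. Compared with these RKP Epcam-high cells, the EKP Epcam-high cells carried more granule, involucrin and Gpx2 transcripts and less of several gland, plasma protein and stem-associated transcripts, while 4 of 5 counted epithelial genes stayed within 2-fold. Of 460 counted genes, 115 were higher in the EKP cells, which is 25.0%, and 68 were lower, which is 14.8%, with a median log2 ratio of 0.30. Scaled to a median ratio of 1, 71 were higher and 83 lower. Many of these were rare transcripts. Among the 159 genes with 500 CPM or more in at least one of the sets, 21 were higher, which is 13.2%, and 32 were lower, which is 20.1%. Of the 12 named genes on each side, 10 had file parts that did not overlap, where 17.6% of all 460 counted genes did so. Section and tumour line cannot be told apart here. For comparison, RKP Epcam-high cells set against other RKP barcodes gave 65 of 441 genes higher, which is 14.7%, and 222 lower, which is 50.3%.

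Cdh1 was at 23026 CPM in EKP and 18999 CPM in RKP Epcam-high cells. Cldn4 stood at 26306 CPM in EKP and 29409 CPM in RKP. Cldn7 was at 2402 CPM in EKP and 2512 CPM in RKP. Only Cldn3 passed 2-fold among the 5 counted epithelial genes, at 1467 CPM in EKP and 3236 CPM in RKP. The claudin Cldn2 differed most, 11.6-fold lower at 1124 CPM in EKP and 13055 CPM in RKP, with parts of 524 to 1600 CPM in EKP and 11912 to 14965 CPM in RKP. Of 6 membrane mucins 3 were lower: Muc4, at 5365 CPM in EKP and 18663 CPM in RKP, Muc20, 4.54-fold lower, and Muc3a, at 7.11 CPM in EKP and 340 CPM in RKP. Muc16 was higher at 169 CPM in EKP and 51.2 CPM in RKP.

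Scg2 had the largest ratio upwards among genes with 500 CPM or more, with 651 CPM in EKP and 23.5 CPM in RKP Epcam-high cells, a ratio of 27.7 (24.1 to 32.0). Its parts lay between 438 and 1388 CPM in EKP and between 10.7 and 69.4 CPM in RKP. Of the 10 counted granule and neuroendocrine genes 7 were higher and none was lower, with a median log2 ratio of 1.91. Snap25 was at 693 CPM in EKP and 170 CPM in RKP. Insm1 stood at 434 CPM in EKP and 90.8 CPM in RKP. Ptprn2, a granule membrane phosphatase, was at 230 CPM in EKP and 3.35 CPM in RKP, where it did not exceed the most abundant negative control probe. Gad1, an enzyme of GABA synthesis, was at 129 CPM in EKP and 18.8 CPM in RKP. Chga, at 38.8 CPM in EKP and 20.6 CPM in RKP, stayed within 2-fold.

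Ivl was at 3080 CPM in EKP and 526 CPM in RKP Epcam-high cells, a ratio of 5.86, with parts of 1959 to 4716 CPM in EKP and 246 to 1052 CPM in RKP. The other envelope and lining genes differed less. Lor was at 580 CPM in EKP and 383 CPM in RKP. Upk1a stood at 968 CPM in EKP and 520 CPM in RKP. Krt5 ran the other way at 16.4 CPM in EKP and 153 CPM in RKP. Scin, an actin-severing protein, was at 2486 CPM in EKP and 598 CPM in RKP. Acan was at 31513 CPM in EKP and 10316 CPM in RKP. Cdkn1a, the cell-cycle inhibitor p21, was at 8459 CPM in EKP and 2755 CPM in RKP with parts of 6576 to 10768 CPM in EKP and 2356 to 3485 CPM in RKP. Sox2 was at 7687 CPM in EKP and 2672 CPM in RKP. Ndrg1 stood at 13058 CPM in EKP and 5604 CPM in RKP. Mamdc2 stood 4.13-fold higher, Fndc4 2.73-fold and Aqp1, a water channel, 2.39-fold.

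Gpx2 was at 6792 CPM in EKP and 1956 CPM in RKP Epcam-high cells, but its parts, 3138 to 10887 CPM in EKP and 1435 to 3509 CPM in RKP, overlapped. The gastric and gut list split again, with 3 of 14 higher and 7 lower. The gel-forming mucins Muc5ac and Muc2 were higher. Muc5ac was at 79.1 CPM in EKP and 9.72 CPM in RKP, and Muc2 at 296 CPM in EKP and 27.0 CPM in RKP. The lower members were Agr2 at 15.1-fold, Tm4sf4 at 24.1-fold, Tff2, Tff3, Reg3g, Cdhr5 and Muc3a, known from mucous or brush-border cells. Ctse, at 8032 CPM in EKP and 9264 CPM in RKP, and Gpa33, at 10988 CPM in EKP and 8817 CPM in RKP, stayed within 2-fold. All 3 plasma protein and gland genes were lower. Ambp, which encodes the precursor of bikunin, was at 6.22 CPM in EKP and 895 CPM in RKP. Sftpd, a surfactant protein, stood at 13.8 CPM in EKP and 1339 CPM in RKP. Gc, the vitamin D binding protein, was at 6.96 CPM in EKP and 217 CPM in RKP. The parts of Ambp overlapped, and those of Sftpd did not.

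The WNT and stem list was split, with 3 of 9 counted genes higher, 4 lower and 2 within 2-fold. Lgr5, a WNT target receptor, was at 293 CPM in EKP and 2021 CPM in RKP Epcam-high cells. Prom1 was at 7430 CPM in EKP and 26351 CPM in RKP. Sox9 stood at 3759 CPM in EKP and 8166 CPM in RKP. Axin2, another WNT target, was at 455 CPM in EKP and 1760 CPM in RKP. The higher members were Sox2, given above, Sox17 at 31.1 CPM in EKP and 13.3 CPM in RKP, and the rare Wif1 at 8.89 CPM in EKP and 3.69 CPM in RKP. In RKP Wif1 did not exceed the most abundant negative control probe. Gabrp was at 1787 CPM in EKP and 12426 CPM in RKP. S100b was at 72.0 CPM in EKP and 633 CPM in RKP. Epsti1, an interferon-induced gene, was at 180 CPM in EKP and 1276 CPM in RKP. Bst1 stood at 127 CPM in EKP and 766 CPM in RKP. Snai1 was higher, at 1550 CPM in EKP and 750 CPM in RKP, whereas Snai2 and Twist1 stayed within 2-fold. The 5 proliferation genes stayed within 2-fold, with Mki67 at 2669 CPM in EKP and 3520 CPM in RKP and a median log2 ratio of -0.42. Mrc1, a macrophage receptor, was at 761 CPM in EKP and 268 CPM in RKP, while the 12 macrophage markers summed to 4718 CPM in EKP and 8723 CPM in RKP. Fibroblast markers summed to 20696 CPM in EKP and 15171 CPM in RKP. What those markers contribute to the differences was not tested.

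**Figure D3:**
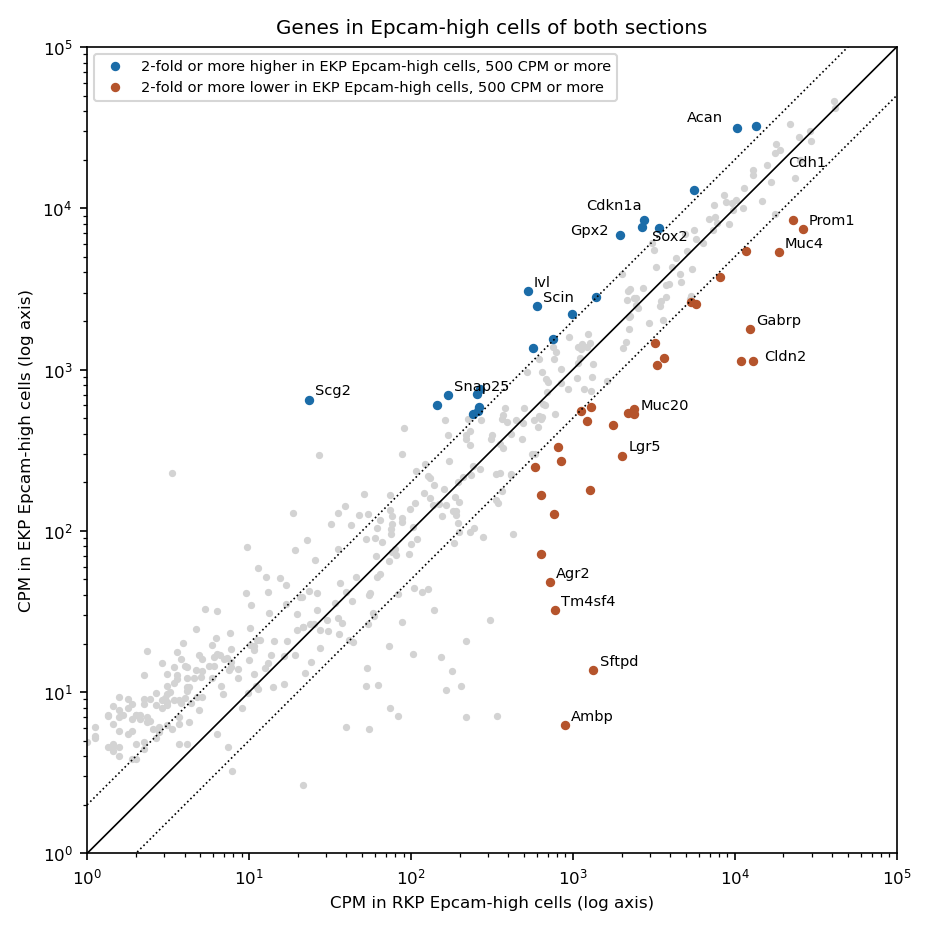
Level of each counted gene in CPM in EKP Epcam-high cells, on the vertical log axis, and in RKP Epcam-high cells, on the horizontal log axis, with a solid line for equal levels and dotted lines for 2-fold. Scg2, at 651 CPM in EKP and 23.5 CPM in RKP, and Ivl, at 3080 CPM in EKP and 526 CPM in RKP, lie above the lines, and Cldn2 and Lgr5 lie below.

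Within the Epcam-high cells, genes differed in how unevenly they were spread over cells. The Fano factor, the variance over the mean of counts at 80 counts per cell, is about 1 when counts scatter at random. Its median over the 140 genes with 500 CPM or more was 1.19, and 25 genes reached 1.5. For the same relative spread the factor rises with the mean count, so it does not rank genes of unlike level by unevenness. Among epithelial genes it was 1.51 for Krt19, 1.34 for Cldn4, 1.14 for Cdh1, 1.05 for Cldn7 and 1.03 for Cldn3. Krt19, Cldn4 and Cdh1 had means of 3.82, 2.09 and 1.83 counts per cell. The highest values were 2.60 for Ndrg1, 2.38 for Bgn, 2.17 for Col1a1, 2.10 for Mmp9 and 2.05 for Cp. Muc4, Ccn1, Tagln, Mki67 and Top2a followed, between 1.81 and 1.94. Gpx2 had 1.71, Ivl 1.66 and Scg2 1.39, at means of 0.522, 0.237 and 0.0554 counts per cell, so their order here may follow their levels. Bgn, Col1a1 and Tagln are known as matrix or contractile genes of fibroblasts and pericytes. Whether their counts came from neighbouring cells or from the tumour cells was not tested.

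Epcam-high cells were split by 6 genes at 80 counts per cell, and the genes named are those with 500 CPM or more in at least one of the sides. The Ndrg1, Mki67, Gpx2, Scg2 and Psmb8 splits were chosen after their values were seen. Since each split uses the same cells and counts, they describe which transcripts lay in the same cells and test nothing.

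Cycling genes stood lower in Ndrg1-rich cells, and Ndrg1 stood lower in cells with Mki67. Cells with 4 or more Ndrg1 counts numbered 2468, against 12690 with none, and had a median depth of 218 counts, against 278 in cells without Ndrg1. Of 150 genes, 10 were higher in them, which is 6.67%, and 57 were lower, which is 38.0%, with a median log2 ratio of -0.76. Over all 469 counted genes, rare ones included, 123 were higher, which is 26.2%, and 109 were lower, which is 23.2%. Selenbp1, a selenium-binding protein, stood 5.72-fold higher, Muc2 4.58-fold, F3, which encodes tissue factor, 4.17-fold, Cryab, a small heat shock protein, 3.51-fold, Bmp2 3.44-fold and Cdkn1a 3.24-fold. Vegfa was 2.41-fold higher. Mki67 was at 279 CPM in Ndrg1-rich cells and 3783 CPM in cells without Ndrg1. Top2a stood at 405 CPM in Ndrg1-rich cells and 3878 CPM in cells without Ndrg1. Cenpf was at 86.1 CPM in Ndrg1-rich cells and 1062 CPM in cells without Ndrg1. Gpx2 had a ratio of 0.181 and Ivl of 0.272. Macrophage markers summed to 6473 CPM in Ndrg1-rich cells and 4021 CPM in cells without Ndrg1. Fibroblast markers summed to 13346 CPM in Ndrg1-rich cells and 22292 CPM in cells without Ndrg1. Their part and that of depth were not tested.

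Cells with Mki67 numbered 3188, against 21490 without. Of 150 genes, 13 were higher, which is 8.67%, and 8 were lower, which is 5.33%. Over all 465 counted genes the balance was the opposite, with 22 higher, which is 4.73%, and 70 lower, which is 15.1%. The higher ones were led by the cycling genes Cenpf at 8.47-fold, Ube2c at 7.94-fold, Top2a at 7.23-fold and Pclaf at 4.31-fold, and Oit1 and Gatm followed at 3.28-fold and 3.17-fold. Ndrg1 was at 4419 CPM in Mki67-positive and 16076 CPM in Mki67-negative cells. Cdkn1a stood at 3792 CPM in Mki67-positive and 9568 CPM in Mki67-negative cells. Arg1, the enzyme arginase 1, was at 1176 CPM in Mki67-positive and 2997 CPM in Mki67-negative cells. Muc4 was lower as well, at 2580 CPM in Mki67-positive and 5901 CPM in Mki67-negative cells. Macrophage markers summed to 3058 CPM in Mki67-positive and 5188 CPM in Mki67-negative cells, at median depths of 286 counts in Mki67-positive and 260 in Mki67-negative cells. The part of both was not tested. At 80 counts, 20.4% of Epcam-high cells had a count of Mki67 or Top2a (19.8 to 20.9).

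Cycling genes stood higher in Gpx2-rich cells. Cells with 2 or more Gpx2 counts numbered 3013, against 16752 with none. Of 146 genes, 16 were higher, which is 11.0%, and 10 were lower, which is 6.85%. Over all 466 counted genes the balance was the opposite, with 27 higher, which is 5.79%, and 119 lower, which is 25.5%. Mki67 was at 6144 CPM in Gpx2-rich cells and 1395 CPM in cells without Gpx2, Cenpf stood 4.31-fold higher, Top2a 4.06-fold and Ube2c 4.02-fold. Oit1 stood 4.93-fold higher and Prom2 3.33-fold. Ndrg1 was at 4186 CPM in Gpx2-rich cells and 17941 CPM in cells without Gpx2. Cdkn1a stood at 3883 CPM in Gpx2-rich cells and 10402 CPM in cells without Gpx2, and Selenbp1, Arg1, Cryab and Ccl9 were lower too, at ratios of 0.296 to 0.397. A Gpx2 count was found in 59.6% of Mki67-positive and 28.0% of Mki67-negative Epcam-high cells. Macrophage markers summed to 2937 CPM in Gpx2-rich cells and 5521 CPM in cells without Gpx2. Median depths were 280 counts in Gpx2-rich cells and 257 in cells without Gpx2. The part of both was not tested.

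The Ivl split was weaker. Cells with 2 or more Ivl counts numbered 1141, against 20560 with none, and of 144 genes none was higher, which is 0.00%, and 6 were lower, which is 4.17%. Etv1, Insm1, Prom2, Muc20, Trim29 and Car2 stood highest, at ratios of 1.64 to 1.83. Lum, a matrix protein of fibroblasts, was at 592 CPM in Ivl-rich cells and 1480 CPM in cells without Ivl. Cd68 of macrophages was at 329 CPM in Ivl-rich cells and 692 CPM in cells without Ivl. Ndrg1 stood at 7570 CPM in Ivl-rich cells and 15796 CPM in cells without Ivl, and Cryab, Fxyd6 and Selenbp1 had ratios of 0.465 to 0.478. Over all 465 counted genes, rare ones included, 28 were higher, which is 6.02%, and 62 were lower, which is 13.3%. Macrophage markers summed to 3319 CPM in Ivl-rich cells and 5138 CPM in cells without Ivl, and fibroblast markers to 16378 CPM in Ivl-rich cells and 20449 CPM in cells without Ivl, and their part was not tested. Lor had a ratio of 1.57, Upk1a of 1.08 and Cdh1 of 1.02, so the Ivl-rich cells showed no wider squamous pattern past 2-fold among genes of that level. At 80 counts Gpx2 was found in 43.1% of cells with Ivl and 29.9% of cells without.

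The Scg2 split set cells with any count against the rest. At a mean of 0.0554 Scg2 counts per cell, a cell without a count may still carry the transcript. The 2 sides therefore need not be distinct sets of cells. The 1146 cells with a Scg2 count, against 23532 without, had 1 of 140 genes higher, which is 0.714%, and 5 lower, which is 3.57%. Over all 466 counted genes 35 were higher, which is 7.51%, and 41 were lower, which is 8.80%. Bmp2 was at 774 CPM in Scg2-positive and 373 CPM in Scg2-negative cells. Snap25 stood 1.88-fold and Insm1 1.67-fold higher, both granule or neuroendocrine genes, and F3, Trim29 and Krt16 followed. Gabrp was at 611 CPM in Scg2-positive and 1790 CPM in Scg2-negative cells. Cp, which encodes ceruloplasmin, stood at 3261 CPM in Scg2-positive and 8343 CPM in Scg2-negative cells. Hp, which encodes haptoglobin, was at 862 CPM in Scg2-positive and 2068 CPM in Scg2-negative cells. The complement gene C3 was at 556 CPM in Scg2-positive and 1200 CPM in Scg2-negative cells. Snai1 stood at 709 CPM in Scg2-positive and 1529 CPM in Scg2-negative cells. Fibroblast markers summed to 13743 CPM in Scg2-positive and 20426 CPM in Scg2-negative cells, and their part in the lower genes was not tested. Ivl and Scg2 were found together in 0.879% of Epcam-high cells. Scg2 was found in 5.27% of cells with Ivl and 4.52% of cells without, so the 2 transcripts did not avoid each other.

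**Figure D4:**
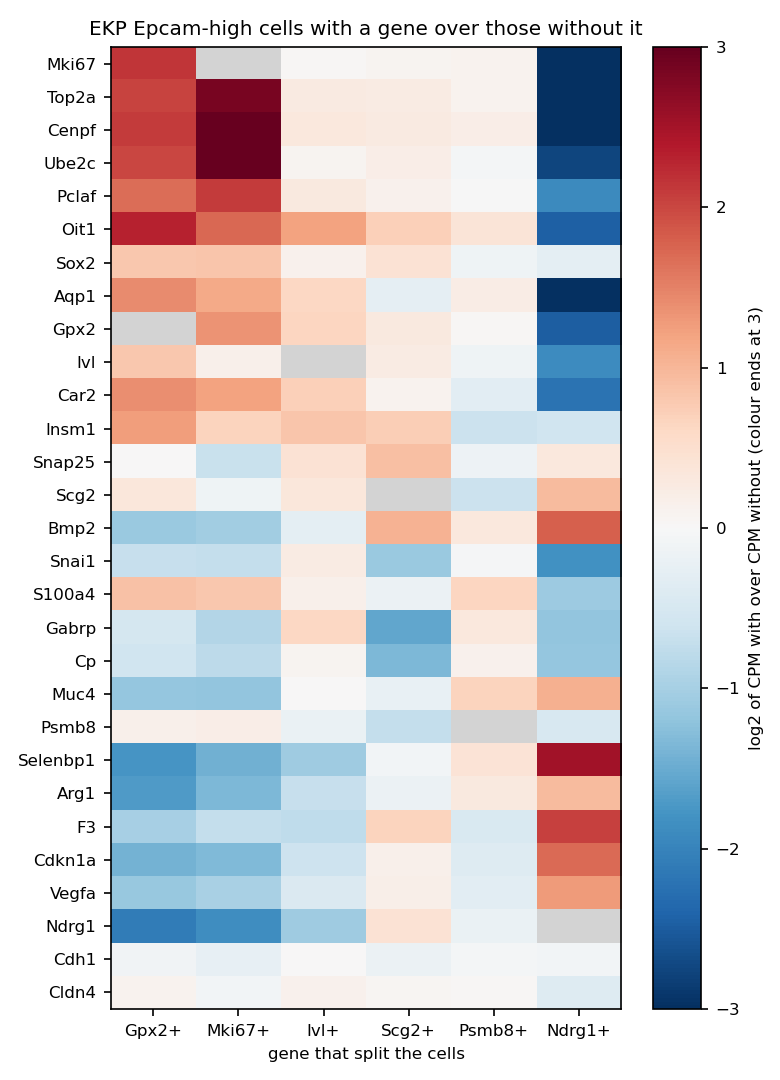
Colour map of the log2 ratio of CPM between EKP Epcam-high cells with a gene and those without it, for chosen genes down the side and the 6 splitting genes along the bottom; cells were thinned to 80 counts, red is higher and blue lower in cells with the gene, and the splitting gene itself is grey. Mki67 is blue in the Ndrg1 column and red in the Gpx2 column, and Cdh1 is pale in every column.

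The level of Epcam itself went with few other genes inside the set. By Epcam at 80 counts, 4573 cells had 0 to 2, 12189 had 3 to 5 and 7916 had 6 or more. Cdh1 stood at 21050, 23044 and 23784 CPM in these strata, in that order, and Cldn4 at 24076, 26200 and 27370 CPM. Ivl stood at 3242, 3068 and 2632 CPM, so it ran slightly against Epcam. Trp53, at 910, 688 and 608 CPM, and Col1a1, at 24970, 17073 and 11690 CPM, were lower where Epcam was higher. With cells ranked by depth and cut into 4 groups of like size, Top2a and Ube2c stood 2-fold or more higher in the deepest than in the shallowest group and no gene with 500 CPM or more stood 2-fold lower. Mki67 was at 3304 CPM in the deepest and 1682 CPM in the shallowest group.

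Epcam-high cells were unevenly placed along the file. They made up 30.6, 36.0, 15.9, 23.1, 6.41, 2.18, 21.6, 14.4, 7.66 and 24.4% of barcodes in the 10 successive parts. After an Epcam-high cell the next barcode of 80 or more counts was also Epcam-high in 45.2% of cases, against 12.5% after another barcode. Whether the file order follows place in the section was not tested.

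Of 140 genes with 500 CPM or more in these cells, 62 differed 2-fold or more between the highest and the lowest part. Psmb8, an interferon-induced subunit of the immunoproteasome, differed most, 43.8-fold, at 561, 562, 1695, 436, 1131, 1155, 4201, 5563, 127 and 271 CPM. It was high in the seventh and eighth parts and low in the last 2. In the other EKP barcodes Psmb8 ran from 832 to 4550 CPM, 5.47-fold, and in RKP Epcam-high cells from 1144 to 3740 CPM, 3.27-fold. Lum differed 6.84-fold and Mmp9, a matrix protease, 6.14-fold. Mki67 lay between 842 and 5046 CPM, highest in the sixth part, the smallest with 290 Epcam-high cells, and lowest in the second. In the second part the other EKP barcodes were at 1555 CPM. Directly after an Epcam-high cell with Psmb8 the next Epcam-high cell had Psmb8 in 28.4% of cases, against 7.74% after one without. For Ndrg1 the shares were 67.7% after a cell with it and 30.5% after one without, for Mki67 30.5% after one with and 10.3% after one without, and for Scg2 11.6% after one with and 4.30% after one without.

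Psmb8-positive cells numbered 2408, against 22270 without, at a median depth of 263 counts on both sides. Of 143 genes 1 was higher, which is 0.699%, and none was lower, which is 0.00%. Over all 467 counted genes 15 were higher, which is 3.21%, and 63 were lower, which is 13.5%. The higher gene at 500 CPM or more was Rac2, a GTPase of blood cells, at 633 CPM in Psmb8-positive and 309 CPM in Psmb8-negative cells. Ctss, a lysosomal protease of antigen-presenting cells, stood 1.81-fold higher, Muc4 1.60-fold and S100a4 1.57-fold. Lor and Scg2 had ratios of 0.551 and 0.636. Psmb8 was high in the seventh and eighth file parts. There Muc4 was at its highest, 9253 and 8781 CPM, and Lor at its lowest, 279 and 328 CPM. S100a4 was at 5294 and 5031 CPM in these parts and higher still in the sixth and ninth. Scg2 was at 438 CPM in the seventh and 1188 CPM in the eighth part. What file position contributes to this split was not tested. T and NK cell markers summed to 597 CPM in Psmb8-positive and 262 CPM in Psmb8-negative cells, and fibroblast markers to 25498 CPM in Psmb8-positive and 19534 CPM in Psmb8-negative cells, and their part in this was not tested.

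**Figure D5:**
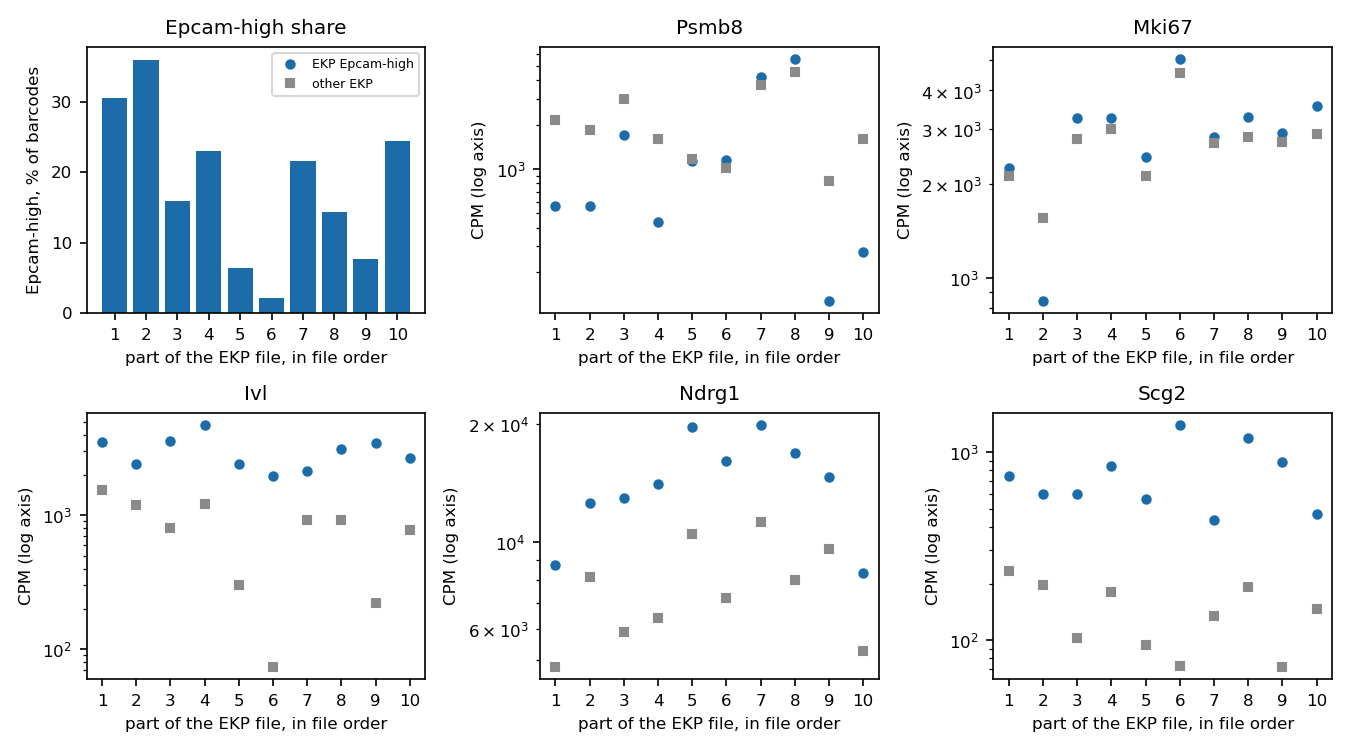
Share of Epcam-high cells, as bars in percent, and level of 5 genes in CPM, on log axes, over the 10 successive parts of the EKP file; circles are EKP Epcam-high cells and squares are other EKP barcodes, pooled per part. Psmb8 runs between 127 and 5563 CPM in Epcam-high cells, and for Ivl and Scg2 the circles lie above the squares in every part.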

How the data were processed

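The authors deposited raw transcript counts per gene and barcode for each section, with no normalization, per the file headers. The submitters' processing notes list Seurat 4.4.0 without a role. The cell segmentation, any transcript quality filter and cell positions are not given in the labels or headers. Sections were grouped by their labels. Counts were summed per set of barcodes and given as CPM. A gene was counted if, in at least 1 set, its summed count exceeded the most abundant negative control probe of those barcodes. If the lower set did not exceed it, the probe's value was used there, which makes the fold a bound. The genes of the rule were not counted. Ratios have exact 95% conditional binomial intervals. Shares with a count and Fano factors used barcodes thinned at random to 80 counts. With no replicates, no test was run and no p-value is given.

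The members, gene lists and splits were chosen with earlier results of these data known. The text names, among genes with 500 CPM or more, the 12 most different each way (6 for the Krt8-positive sets and the splits), the 10 largest Fano factors, the marker genes and members of the lists. Genes named beyond this rule, among them Psmb8, Krt5, Cldn11 and Ly6g6c, were chosen after their values were seen. A gene that the rule selects is not reported here. Python 3.11.15 with numpy 2.4.6, scipy 1.17.1 and pandas 2.3.3 was used. On simulated data the comparison of EKP Epcam-high cells with other EKP barcodes, run on 479 genes, recovered 191 of 197 changed genes (97.0%). The largest error in log2 ratio was 0.657. The simulation drew pooled sums with counting error only and with changes larger than the 2-fold rule. It held no spread between cells or file parts, and calls among unchanged genes were not counted, so it checks the calculation only. The alternatives were other scalings, filters, depths, thresholds, exclusions and thinning.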

Additional observations from a re-analysis of the deposited data

Results flagged for a closer look

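For 8 genes the Epcam-high cells stood 2-fold or more on opposite sides of the other barcodes in the EKP and the RKP section, and the difference between the sections was not tested. In EKP the log2 ratio of Epcam-high cells over other barcodes was 1.715 for Krt16, a stress keratin, against -1.181 in RKP, with 490 CPM in Epcam-high cells and 149 CPM in other barcodes of EKP, and 162 CPM in Epcam-high cells and 367 CPM in other barcodes of RKP. For Col17a1, a hemidesmosome collagen of basal cells, it was 1.286 in EKP and -3.174 in RKP, with 129 CPM in Epcam-high cells and 52.9 CPM in other barcodes of EKP, and 35.4 CPM in Epcam-high cells and 320 CPM in other barcodes of RKP. Krt79 had 1.395 in EKP and -3.263 in RKP, Ly6g6c had 1.653 in EKP and -2.426 in RKP, and Krt13 had 1.036 in EKP and -1.071 in RKP. These 5 stood higher in EKP Epcam-high cells and lower in RKP ones. The other 3 ran the other way: B4galnt2, a glycosyltransferase, had -1.197 in EKP and 1.339 in RKP, Muc3a had -1.472 in EKP and 1.74 in RKP, and S100b had -1.018 in EKP and 1.266 in RKP. Muc3a was at 7.11 CPM in Epcam-high cells and 19.7 CPM in other barcodes of EKP, and at 340 CPM in Epcam-high cells and 102 CPM in other barcodes of RKP. The median log2 ratio over all counted genes was -0.52 in EKP and -1.02 in RKP. Relative to the median gene, Krt16 and Krt13 in RKP were lower by under 2-fold. The same held for B4galnt2, Muc3a and S100b in EKP, so the opposite sides of these genes rest on the scaling. Of 466 genes counted in EKP 247 passed 2-fold in either direction, and of 441 counted in RKP 287 did. Of these, 206 passed 2-fold in the same direction in both sections and the 8 genes above in opposite directions.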

How the results depend on the processing

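No paired analysis was possible because each group has 1 section and no test was run. Across the 1439 values of the 72 pairs of named gene and comparison under the alternatives none reversed and 3 came under 2-fold. Some genes were named in more than 1 comparison. Of 172 counts and shares, 33 moved past the limit; the cause was not tested. With genes of 500 CPM or more only, 106 genes were lower against other EKP barcodes, and 21 were higher and 32 lower against RKP Epcam-high cells. With the median ratio set to 1, 71 were higher against RKP Epcam-high cells, 89 higher and 47 lower against Krt8-positive barcodes without Epcam, and 97 higher and 27 lower against those with intermediate Epcam. For that last set, counts per barcode gave 58 higher and 89 lower, weighting its barcodes to the depth of the Epcam-high cells gave 45 and 140, weighting every barcode alike gave 9 higher and thinning gave 14 higher. The share of Epcam-high cells was 21.5% at thresholds of 3 and 11.2% at 10, 25.0% at a depth of 160 and 15.5% at 40, 28.1% with no exclusion, and 5.17% with the thresholds applied after thinning. Detection of Ivl was 35.4% unthinned, 9.64% at 40 counts and 17.2% at thresholds of 10; of Gpx2 55.7%, 19.8% and 33.8%; of Scg2 11.3% unthinned, 2.42% at 40 counts and 3.93% with no exclusion. At 160 counts 58 genes and at 40 counts 6 genes reached a Fano factor of 1.5. The Ivl split over all counted genes had 7 higher with 1 Ivl count as the threshold and 28 lower with no filter on low values. Leaving out each file part in turn gave 60 to 62 higher and 180 to 188 lower against other EKP barcodes, and 109 to 128 higher and 64 to 70 lower against RKP Epcam-high cells.

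Chosen after seeing the data were the 500 CPM limit, the left-out file parts, a reference without barcodes that reach both thresholds, which gave 67 higher and 195 lower, and stricter sets that also lack 7 other immune and endothelial genes, which kept 16046 EKP and 25334 RKP cells. Depth limits what single cells show: at 80 counts a gene such as Scg2, at 651 CPM, has no count in most cells, so a cell without a count may still carry the transcript.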

Other observations

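Negative control codewords, which should decode nothing, held 321 counts in the EKP Epcam-high cells, 103 of them from 1 codeword, and 2207 counts in the other EKP barcodes, 1633 of them from 1 codeword.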
